A study of Mus musculus with 8 samples.

Results

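The genes described are 10 core genes of the Notch pathway: the receptors Notch1, Notch2 and Notch3, the ligands Jag1, Dll1 and Dll4, the nuclear mediator Rbpj, and the target genes Hes1, Hey1 and Hey2. They were chosen by name, and every probe set that the array annotation gives to 1 of them alone was taken, which made 18 of the 45101 probe sets for 10 of the 18193 named genes. Of these, 15 probe sets of 9 genes lay above the median signal of their array on at least 2 arrays and entered the tests, in which each gene was represented by its brightest probe set. Hey2 was below the array median on all 8 arrays and was fitted only without that filter.

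The arrays measured sciatic nerve of adult mice 7 days after a cut at the sciatic notch, and the series compares mice that the labels call WT and c-Jun KO, here control and mutant. Each genotype gave 2 arrays of cut and 2 of uncut nerve, 8 in 4 groups. A cut sample was a 10 mm piece of the distal stump and an uncut sample was the intact nerve of the other side, so the uncut nerves also came from injured animals; each array held RNA pooled from 4 or 6 mice. Which Cre driver and which Jun allele the mutants carried is not stated in the labels. With 2 pools per group, every p-value measures the spread between pools rather than between single animals.

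Notch receptors are cell surface proteins that bind Jagged and Delta ligands on a neighbouring cell. Binding lets ADAM proteases and then the gamma-secretase complex cut the receptor, and the freed intracellular part joins Rbpj and Mastermind proteins in the nucleus, where it turns on genes of the Hes and Hey repressors. In the nerve, Notch is known to promote the formation and division of immature Schwann cells and to oppose myelination, and its activity in adult nerve speeds myelin loss after injury. The same pathway works in blood vessels, where Dll4 and Notch1 act in endothelial cells and Notch3 in mural cells.

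Promoter sequence of 8 members was taken from the RefSeq table of build GRCm38.p6, as the 250 bases before each start site; Hes1 and Hey1 were not in that table. Both strands were searched for TGGGAA, the core of the Rbpj site, and for CACGNG, a site of Hes and Hey proteins. The third pattern was TGANTCA, a loose form of the AP-1 site of Jun proteins that takes any base in the middle. The Rbpj core was found in 2 of 8 members, Hey2 and Rbpj, and in 21.6% of the windows of all 32851 start sites. The Hes and Hey site was found in 5 of 8 (Notch2, Notch3, Jag1, Dll1 and Dll4), and in 23.5% of all windows. The AP-1 pattern was matched in Dll1 alone, as TGATTCA, beside 6.75% of all windows. The member windows had a median of 65.8% G and C bases, against 52.4% over all windows, and CACGNG is rich in these bases. A member also counted if any of its windows matched, and Dll1 and Rbpj have 2 each, while the shares of all are per window. Neither was adjusted for, so these counts do not measure enrichment. No match of 1 pattern overlapped a match of another in these windows. The sequences shown are those of Hey2 and Rbpj, which hold the core of the pathway's own mediator, and of Dll1. Dll1 holds the match to the loose AP-1 pattern, with T as its middle base, so it is not shown to hold a site of Jun. Capitals mark the Rbpj core (TTCCCA is its other strand) or, in Dll1, the match to the AP-1 pattern. The Hey2 window is chr10:30842784-30843033 on the minus strand, the Rbpj window chr5:53590096-53590345 on the plus strand, and the Dll1 window, 1 of 2 start sites, chr17:15376933-15377182 on the minus strand.
Hey2: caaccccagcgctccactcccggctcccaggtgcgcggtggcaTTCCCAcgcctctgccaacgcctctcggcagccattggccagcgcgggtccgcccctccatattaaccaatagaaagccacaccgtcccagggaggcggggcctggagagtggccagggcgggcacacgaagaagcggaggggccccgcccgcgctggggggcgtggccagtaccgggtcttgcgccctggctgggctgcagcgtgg
Rbpj: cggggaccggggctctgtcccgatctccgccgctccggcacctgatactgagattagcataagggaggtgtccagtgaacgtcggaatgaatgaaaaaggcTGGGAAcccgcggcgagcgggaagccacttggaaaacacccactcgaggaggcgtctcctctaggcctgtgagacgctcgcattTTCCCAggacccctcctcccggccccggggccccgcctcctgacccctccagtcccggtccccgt
Dll1: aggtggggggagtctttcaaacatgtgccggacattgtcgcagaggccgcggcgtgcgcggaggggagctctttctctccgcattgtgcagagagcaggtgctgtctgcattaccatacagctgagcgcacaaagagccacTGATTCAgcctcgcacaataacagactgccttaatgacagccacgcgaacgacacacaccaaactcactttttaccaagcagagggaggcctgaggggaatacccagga
A match describes the letters of the window and does not show that a factor binds there.

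Values are log2 expression values, so a difference of 1 is a 2-fold change. Array medians lay between 6.59 and 6.65, and replicate arrays correlated with r = 0.984 to 0.989 across 12093 genes. Jun, the targeted gene, read 11.88 and 11.96 in control cut nerve, 10.39 and 10.80 in mutant cut nerve, and between 9.58 and 9.70 in the uncut nerves. Its difference in cut nerve was -1.33 (limma with Benjamini-Hochberg adjustment over all genes, adjusted p = 0.0087). Leaving out control cut replicate 1 gave an adjusted p of 0.0631 and leaving out replicate 2 gave 0.0574, so either array ended the call. The labels give the tissue as Schwann cells, and 1 field names schwannoma cells. Sox10, a defining factor of the Schwann lineage, lay between 10.75 and 11.30 on all arrays, but Pecam1 of endothelial cells and Pdgfrb of mural cells were also well above the array medians, at 9.32 to 9.70 and 10.91 to 11.37. Every value below is therefore of a mixed nerve segment, in which fewer cells of a type and less RNA per cell cannot be told apart.

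After the cut, in control nerve Notch1 rose and Notch2 fell, and Hes1, a transcriptional repressor and classical Notch target, rose. In mutant nerve Notch1 and Hes1 rose and the ligand Dll1 fell. None of the 9 tested members differed between the genotypes after adjustment. In control nerve 2 of 9 members were called higher and 1 lower, beside 22.8% and 17.5% of the 12093 genes tested; in mutant nerve it was again 2 higher and 1 lower, beside 18.1% and 17.8%. The members were thus called about as often as other genes. The control count fell to 1 without control cut replicate 2 or control uncut replicate 2, and the mutant count to 1 without mutant cut replicate 1 and to 0 without mutant cut replicate 2. Leaving out an array of a compared group weakens the test for every gene, and the counts of other pathway genes given below fell too. The median difference of the 9 members was -0.18 in control and -0.28 in mutant nerve, and over all genes 0.05 and -0.00.

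**Figure D1:**
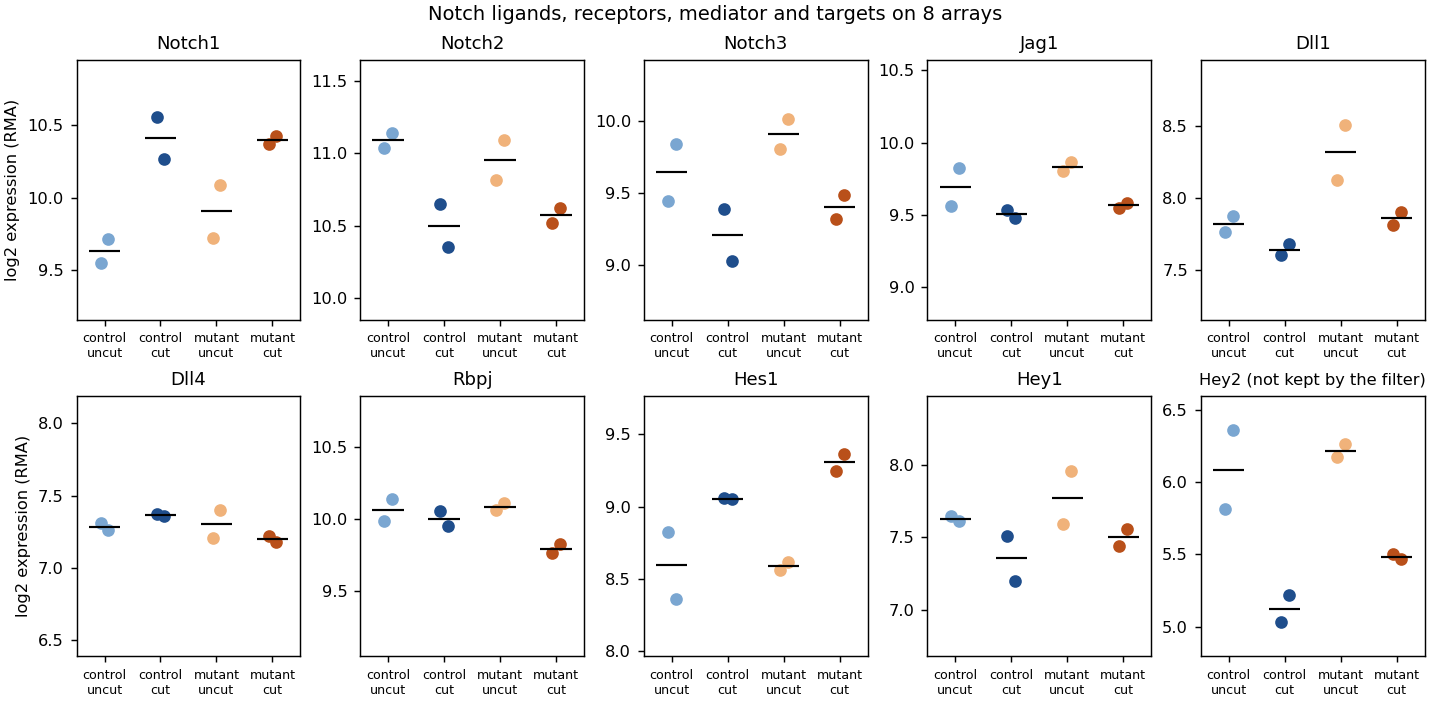
Log2 expression of each of the 10 members on every array, for the probe set used in the tests; points are arrays, 2 per group, short lines are group means, and every panel spans the same number of log2 units around its own gene's level. Notch1 and Hes1 were higher and Notch2 and Hey2 lower on all 4 cut arrays than on all 4 uncut arrays.

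Notch1, the best studied receptor of the family, read 9.54 and 9.72 in control uncut nerve and 10.56 and 10.27 in control cut nerve. In the mutant it read 9.72 and 10.09 uncut and 10.37 and 10.43 cut. The cut arrays of both genotypes were above all uncut arrays, and the cut groups of the genotypes overlapped. The rise in control nerve was 0.79 (1.72-fold, SE 0.15, 95% interval 0.43 to 1.15, limma adjusted p = 0.0056), and it kept its call without each of the 8 arrays in turn, with adjusted p from 0.00426 to 0.0404. In mutant nerve it was 0.50 (1.41-fold, interval 0.14 to 0.86, adjusted p = 0.0397). That call was lost without control uncut replicate 1 or 2 (adjusted p = 0.0549 each), mutant cut replicate 1 (0.0977), mutant cut replicate 2 (0.146) or mutant uncut replicate 1 (0.199), and with only the 4 mutant arrays (0.0563). The second Notch1 probe set ran from 7.58 to 7.80 in uncut and from 8.12 to 8.33 in cut nerve. Fitted among all probe sets, it rose by 0.53 in control nerve (adjusted p = 0.0115) and by 0.44 (adjusted p = 0.0274) in the mutant.

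Notch2, a receptor that shares its ligands with Notch1, went the other way. It read 11.04 and 11.14 in control uncut nerve, 10.65 and 10.35 in control cut nerve, 10.82 and 11.09 in mutant uncut nerve and 10.52 and 10.62 in mutant cut nerve. All 4 cut arrays were below all 4 uncut arrays. In control nerve Notch2 fell by 0.59 (1.51-fold lower, SE 0.14, interval -0.92 to -0.27, limma adjusted p = 0.0121), and leaving out control uncut replicate 2 (adjusted p = 0.0693) or control cut replicate 2 (0.0707) ended that call. The difference in mutant nerve was -0.38 and did not pass (adjusted p = 0.0679). Its other probe set lay between 5.22 and 5.56, below the array medians throughout, and did not enter the tests.

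Notch3, the receptor of vascular mural cells, read 9.45 and 9.84 uncut against 9.39 and 9.03 cut in control nerve, and 9.80 and 10.01 against 9.32 and 9.49 in mutant nerve. Within each genotype the cut arrays lay below the uncut arrays, but the differences of -0.43 and -0.50 missed the threshold (limma adjusted p = 0.0852 and 0.0577). The mutant difference passed when any 1 of the 4 control arrays was left out (adjusted p = 0.0471 or 0.0481). It also passed with only the 4 mutant arrays (limma adjusted p = 0.0342) and with a trended and robust variance model (0.0474). The dimmer Notch3 probe set gave -0.03 in control nerve, where the groups overlapped, and -0.55 in mutant nerve (limma among all probe sets, adjusted p = 0.0752).

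No ligand was called in control nerve, and Dll1 alone in mutant nerve. Dll1, a Delta ligand, read 7.76 and 7.88 in control uncut nerve, 7.60 and 7.68 in control cut nerve, 8.12 and 8.51 in mutant uncut nerve and 7.81 and 7.90 in mutant cut nerve. The uncut mutant arrays were the highest of the 8, and the cut mutant arrays overlapped the uncut controls. Dll1 fell in mutant nerve by 0.46 (interval -0.78 to -0.14, limma adjusted p = 0.0348), while its difference in control nerve was -0.18 (adjusted p = 0.338). The fall in mutant nerve lost its call without control uncut replicate 1 or 2 (adjusted p = 0.0522 each), mutant cut replicate 1 (0.131), mutant cut replicate 2 (0.0885) or mutant uncut replicate 2 (0.177), and with only the 4 mutant arrays (0.0778).

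Jag1, the Jagged ligand of the set, read 9.56 and 9.82 uncut against 9.53 and 9.48 cut in control nerve. In mutant nerve it read 9.80 and 9.86 against 9.54 and 9.58. The cut arrays were the lower ones in each genotype, by 0.19 and 0.27, without passing (limma adjusted p = 0.215 and 0.0963). A second Jag1 probe set overlapped between cut and uncut control nerve, and the remaining probe set stayed below the array medians, between 6.31 and 6.62.

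Dll4, the Delta ligand of sprouting endothelium, was nearly level, as its brighter probe set stayed between 7.18 and 7.40 on all 8 arrays, with differences of 0.08 in control and -0.10 in mutant nerve. Its other probe set gave -0.16 and -0.35, so the sign in control nerve differed between them, and none of these passed.

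Rbpj, the DNA-binding protein through which all Notch receptors act, read 9.98 and 10.14 in control uncut nerve, 10.05 and 9.95 in control cut nerve, 10.06 and 10.11 in mutant uncut nerve and 9.76 and 9.83 in mutant cut nerve. The mutant cut arrays were the 2 lowest, and control uncut nerve overlapped both other groups. The injury difference was -0.06 in control nerve (limma adjusted p = 0.664) and -0.29 (adjusted p = 0.0556) in the mutant. On its dimmer probe sets the mutant values were 9.01 and 8.94 uncut against 8.94 and 8.98 cut, and 8.53 and 8.48 against 8.47 and 8.46. Cut and uncut mutant arrays overlapped on the first of these and differed by less than 0.1 on the other. In control nerve the first read 8.77 and 8.97 uncut against 9.03 and 9.14 cut. Its difference of 0.21 had the opposite sign to the brightest probe set and did not pass (limma among all probe sets, adjusted p = 0.178). The other was level in control nerve (-0.01).

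Among the targets, Hes1 read 8.82 and 8.36 in control uncut nerve, 9.06 and 9.05 in control cut nerve, 8.56 and 8.61 in mutant uncut nerve and 9.24 and 9.37 in mutant cut nerve. All cut arrays were above all uncut arrays, and the mutant cut arrays were the highest. In mutant nerve Hes1 rose by 0.72 (1.65-fold, interval 0.37 to 1.07, limma adjusted p = 0.0082), a call lost only, of the 8 arrays left out in turn, without mutant cut replicate 2 (adjusted p = 0.0505). The rise in control nerve was 0.46 (1.38-fold, interval 0.11 to 0.81, adjusted p = 0.0415). That call was lost without any 1 of 7 arrays (adjusted p from 0.0551 to 0.208, the highest without control uncut replicate 2) and kept only without control uncut replicate 1 (adjusted p = 0.0086). It was also lost with probe sets as units (adjusted p = 0.0507) and with only the 4 control arrays (adjusted p = 0.0744).

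Hey1 and Hey2, repressors that Notch induces in vessels and other tissues, were not called higher in either genotype. Hey1 read 7.65 and 7.61 uncut against 7.51 and 7.20 cut in control nerve, and 7.59 and 7.96 against 7.44 and 7.56 in mutant nerve. Its cut arrays were the lower ones in each genotype, by 0.28 in both, and neither difference passed (limma adjusted p = 0.190 and 0.201). Hey2 was dim, with 5.81 and 6.36 in control uncut, 5.03 and 5.22 in control cut, 6.17 and 6.26 in mutant uncut and 5.50 and 5.47 in mutant cut nerve, against array medians of at least 6.59 and 25th percentiles of 4.95 to 5.01. All 4 cut arrays were below all 4 uncut arrays.

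Fitted without the filter among 18193 genes, Hey2 fell by 0.96 in control nerve (1.95-fold lower, interval -1.35 to -0.57, limma adjusted p = 0.0035) and by 0.73 (adjusted p = 0.0143) in the mutant. In that fit 12.1% of all genes were called lower in control and 12.9% in mutant nerve. The control call held without each array in turn (adjusted p from 0.00117 to 0.0268). The mutant call was lost without mutant cut replicate 1 (adjusted p = 0.0513), mutant cut replicate 2 (0.0694) or mutant uncut replicate 2 (0.0758). With signal this low the size of the fall is uncertain.

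A contrast of injury averaged over both genotypes, added after the data were seen, used all 4 cut and 4 uncut arrays. In it 2 members were called higher and 4 lower of 9, beside 28.9% and 24.7% of all genes. Notch1 rose by 0.64 (1.56-fold, limma adjusted p = 0.0019) and Hes1 by 0.59 (1.51-fold, adjusted p = 0.0024). Notch2 fell by 0.49 (adjusted p = 0.0043), Notch3 by 0.47 (adjusted p = 0.0142), Dll1 by 0.32 (adjusted p = 0.0263) and Jag1 by 0.23 (adjusted p = 0.0402). Dll4 (-0.01), Rbpj (-0.18) and Hey1 (-0.28) did not pass, though Hey1 did without control cut replicate 1 (adjusted p = 0.0357) or mutant uncut replicate 1 (0.0243). The calls of Notch1, Notch2, Notch3 and Hes1 held without each array in turn. For Dll1 the call ended without mutant uncut replicate 2 (adjusted p = 0.0626), control cut replicate 1 (0.0715), mutant cut replicate 1 (0.0729) or control uncut replicate 2 (0.0814). That of Jag1 was lost without any 1 of 7 arrays (adjusted p from 0.0691 to 0.125), and also with no filter (0.051), the mean of the probe sets (0.121), probe sets as units (0.0533) or a further quantile normalisation (0.0604), so it held in 6 of 17 settings. The dimmer Notch3 probe set gave -0.29 in the averaged contrast and was not called (limma among all probe sets, adjusted p = 0.133). The averaged contrast shares its arrays with the contrasts of each genotype and is no separate evidence.

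**Figure D2:**
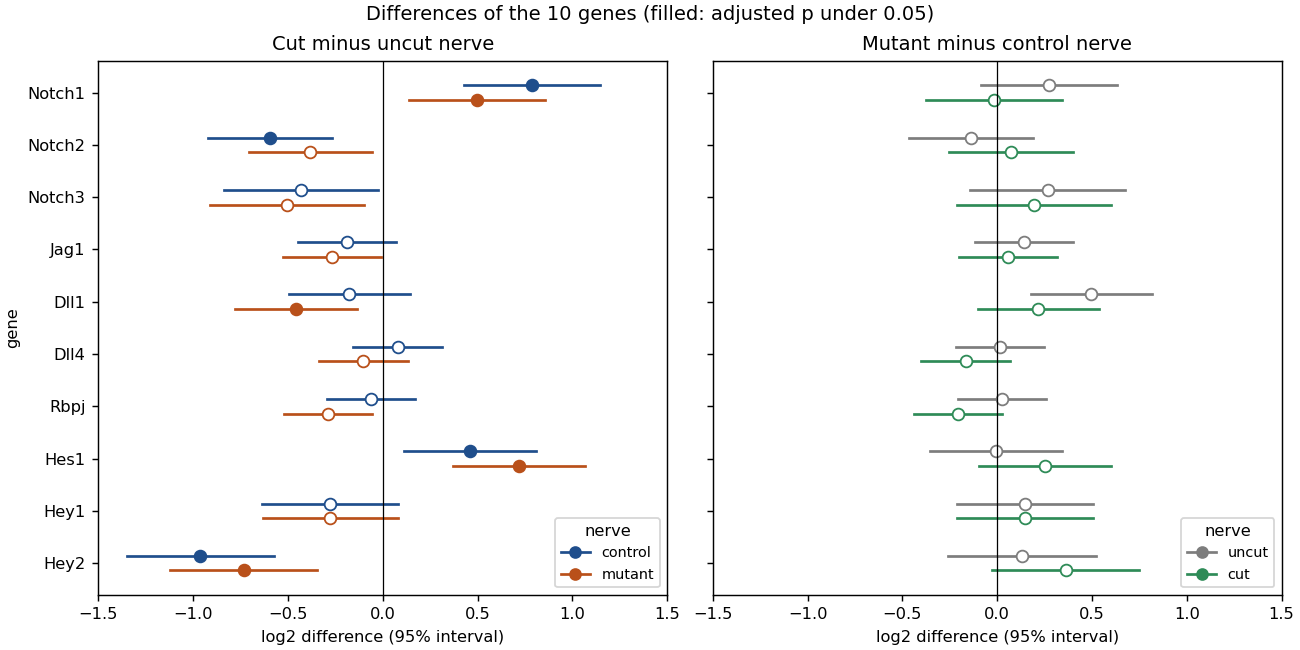
Log2 differences of the 10 members with 95% intervals after injury in control and mutant nerve (left) and between the genotypes in uncut and cut nerve (right); filled points passed an adjusted p under 0.05, and Hey2 comes from the fit without the signal filter. Notch1 and Hes1 lie above 0 and Notch2 below 0 in control nerve, while every interval of genotype in cut nerve includes 0.

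In cut nerve, the comparison that asks what the mutation does after injury, 0 of 9 members were called, and 0 had an unadjusted p under 0.05 in limma. Of all 12093 genes 1.09% were called and 1041 had an unadjusted p under 0.05. The member differences, mutant minus control, ran from -0.21 for Rbpj (interval -0.44 to 0.03, adjusted p = 0.670) to 0.25 for Hes1 (interval -0.10 to 0.60, adjusted p = 0.792). For Notch1 the difference was -0.02, and its interval of -0.38 to 0.34 is the range of differences these arrays allow. The 3 Rbpj probe sets were all lower in the mutant, by 0.21, 0.12 and 0.20, and none of them passed. Hey2, fitted without the filter, differed by 0.36 (interval -0.03 to 0.75, adjusted p = 0.686). The median absolute difference of the members was 0.17, beside 0.10 over all genes.

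In uncut nerve again 0 of 9 members were called, as were 0% of all genes, of which 322 had an unadjusted p under 0.05 in limma. Dll1 was the 1 member among those at an unadjusted p under 0.05. It was 0.50 higher in the mutant (1.41-fold, interval 0.18 to 0.82, limma adjusted p = 0.9997). Both mutant uncut arrays were above both control uncut arrays. The other 8 members ran from -0.14 for Notch2 to 0.27, and 7 of 9 were positive, as were 7397 of all 12093 genes. The 13 endothelial markers listed were also all positive in this contrast, with a median of 0.20 and 0 called, and their mean log2 level was 9.13 to 9.18 in mutant uncut nerve against 8.88 to 8.94 in control uncut nerve. Of 11 mural markers 10 were positive, with a median of 0.15 and 0 called. Among other lists, 3 of 5 arterial markers (median 0.06), 7 of 10 macrophage markers and 7 of 8 skeletal muscle genes were positive. Positive markers numbered 0 of 5 for the Schwann lineage (median -0.17), 1 of 7 for myelinating Schwann cells and 2 of 7 for fibroblasts. The part of any of these lists in the Dll1 value was not tested.

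The interaction asks whether the response to injury differed between genotypes. Of 9 members 0 were called and 0 had an unadjusted p under 0.05 in limma, beside 0.165% of all genes called and 731 of 12093 at an unadjusted p under 0.05. The estimates ran from -0.29 for Notch1 (interval -0.80 to 0.22) to 0.26 for Hes1 (interval -0.24 to 0.75). So the calls of Notch2 in control nerve and of Dll1 in mutant nerve were not shown to differ between genotypes, and with 2 arrays per group the interval of Notch1 allows a difference as large as its injury response.

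**Figure D3:**
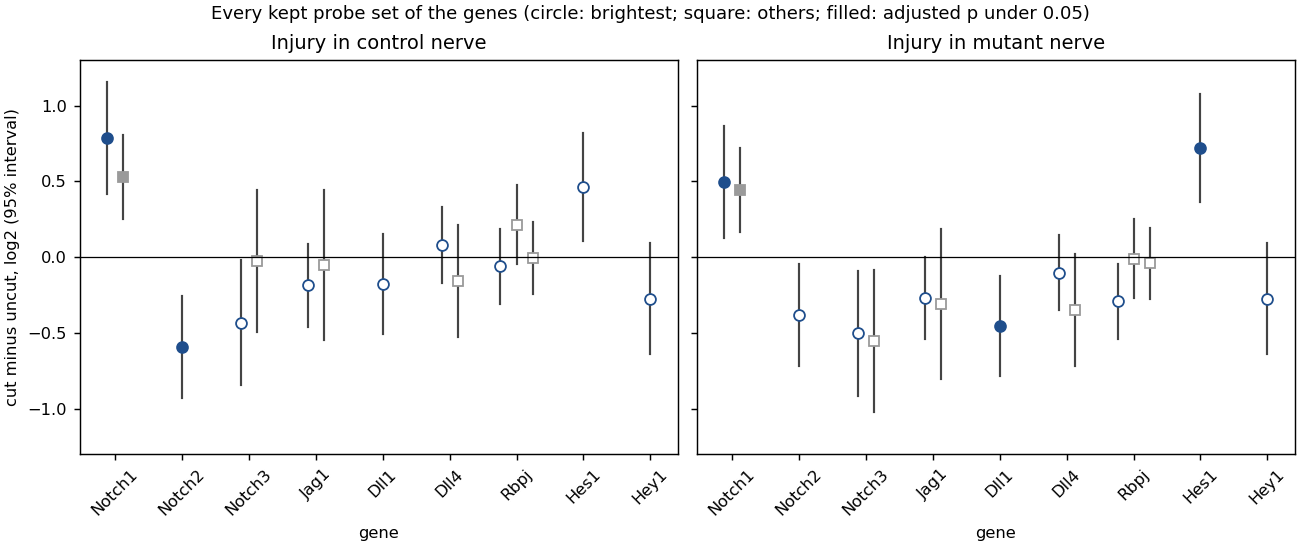
Log2 differences with 95% intervals of the 15 member probe sets that passed the filter, after injury in control and mutant nerve, fitted among all kept probe sets; circles are the brightest probe set of a gene, squares the others, and filled symbols passed an adjusted p under 0.05. Both Notch1 probe sets lie above 0 in both panels, while the pairs of Notch3 and Dll4 differ in size or sign in control nerve.

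The rest of the pathway was read from a list of 56 other genes, of which 51 had a probe set and 47 passed the filter; Dll3, Maml2, Hes5 and Hes7 were too dim. In control nerve 9 were higher, 8 lower and 30 not called, with a median of 0.06. In mutant nerve 6 were higher, 7 lower and 34 not called, with a median of -0.08. Over all genes 22.8% were called higher and 17.5% lower in control nerve and 18.1% and 17.8% in mutant nerve, so the list was called no more often than other genes. The control total of 17 called genes fell to 10 without control cut replicate 2, 7 without control uncut replicate 1 and 9 without control uncut replicate 2, and the mutant total of 13 to 8 without mutant cut replicate 2. In the genotype contrasts and the interaction 0 of 47 were called by limma, and 3, 2 and 3 had an unadjusted p under 0.05 in cut nerve, in uncut nerve and in the interaction, beside 1041, 322 and 731 of all 12093 genes.

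Of 8 genes for receptor cleavage 3 rose and 2 fell in each genotype, beside the shares of all genes just given. Adam10, the main protease of ligand-induced cleavage, read 12.67 and 12.77 in control uncut and 11.49 and 11.45 in control cut nerve, and 12.51 and 12.64 against 11.93 and 11.87 in the mutant. It fell by 1.25 in control nerve (limma adjusted p = 6.8e-05) and by 0.67 in mutant nerve (adjusted p = 0.0016); the interaction of 0.57 did not pass (adjusted p = 0.258). Adam17, a related protease, went from 9.27 and 9.39 to 9.97 and 9.96 in control nerve and from 9.30 and 9.36 to 10.33 and 10.21 in mutant nerve. Its rises were 0.63 (adjusted p = 0.0017) and 0.94 (adjusted p = 0.00031). Furin, which processes the receptor on its way to the surface, rose by 1.02 (adjusted p = 0.00023) and 0.64 (adjusted p = 0.0027). No single array left out ended a call of Adam10, Adam17 or Furin. Aph1b, a gamma-secretase subunit, fell by 0.68 (adjusted p = 0.0181) and 0.63 (adjusted p = 0.0275). Its control call ended without control cut replicate 1 (0.1), control uncut replicate 1 (0.0637) or control uncut replicate 2 (0.0836), and its mutant call without mutant cut replicate 2 (0.148), mutant uncut replicate 1 (0.117) or mutant uncut replicate 2 (0.0687).

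The highest called difference of the list was that of Neurl1a in both genotypes. Neurl1a, a ubiquitin ligase of the Neuralized family that acts on ligands, read 6.83 and 6.95 uncut against 7.98 and 8.62 cut in control nerve. In mutant nerve it read 6.46 and 6.78 against 8.26 and 9.22. On mutant uncut replicate 1 Neurl1a lay below the array median of 6.63. It rose by 1.41 (limma adjusted p = 0.0103) and 2.12 (adjusted p = 0.0020), the former without a call when control cut replicate 2 (0.0626) or control uncut replicate 1 (0.0545) was left out. Hes6, a Hes family protein that opposes Hes1, rose by 0.89 (adjusted p = 0.0097) and 0.93 (adjusted p = 0.0092), and the control call was lost without control uncut replicate 2 (0.0622). On replicate 2 of control and mutant uncut nerve Hes6 read 6.60 and 6.37, below the array medians of 6.64 and 6.63. Dlk1, a ligand-like protein that lacks the Delta domain, rose in control nerve by 1.17 (limma adjusted p = 0.0145). That call was lost without control cut replicate 1, control uncut replicate 1 or control uncut replicate 2. In mutant nerve Dlk1 also went up, from 7.34 and 7.54 uncut to 7.88 and 8.58 cut, but was not called.

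Among the genes that fell, the corepressors Tle1 and Tle2 fell in control nerve by 0.60 (limma adjusted p = 0.0033) and 0.58 (adjusted p = 0.0103). Tle1 also fell in mutant nerve, by 0.57 (limma adjusted p = 0.0047). Tle2 went from 7.23 and 7.54 uncut to 7.09 and 6.92 cut in mutant nerve, without a call. The Tle2 call ended without control cut replicate 2 (0.0533) or control uncut replicate 1 (0.0653). In mutant nerve Dner, a neuronal protein with Delta-like repeats, fell by 0.83 (limma adjusted p = 0.0047), with values of 7.17 and 7.37 uncut and 6.44 and 6.45 cut. These cut values lay below the medians of their arrays, 6.63 and 6.65, so the size of the fall is uncertain. In control nerve the Dner groups overlapped, and the interaction of -0.61 did not pass (limma adjusted p = 0.625). Mfng, a Fringe enzyme that adds sugar to the receptor, fell in mutant nerve by 0.75 (adjusted p = 0.0130), without a call when mutant cut replicate 2 (0.0759) or mutant uncut replicate 1 (0.062) was left out.

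**Figure D4:**
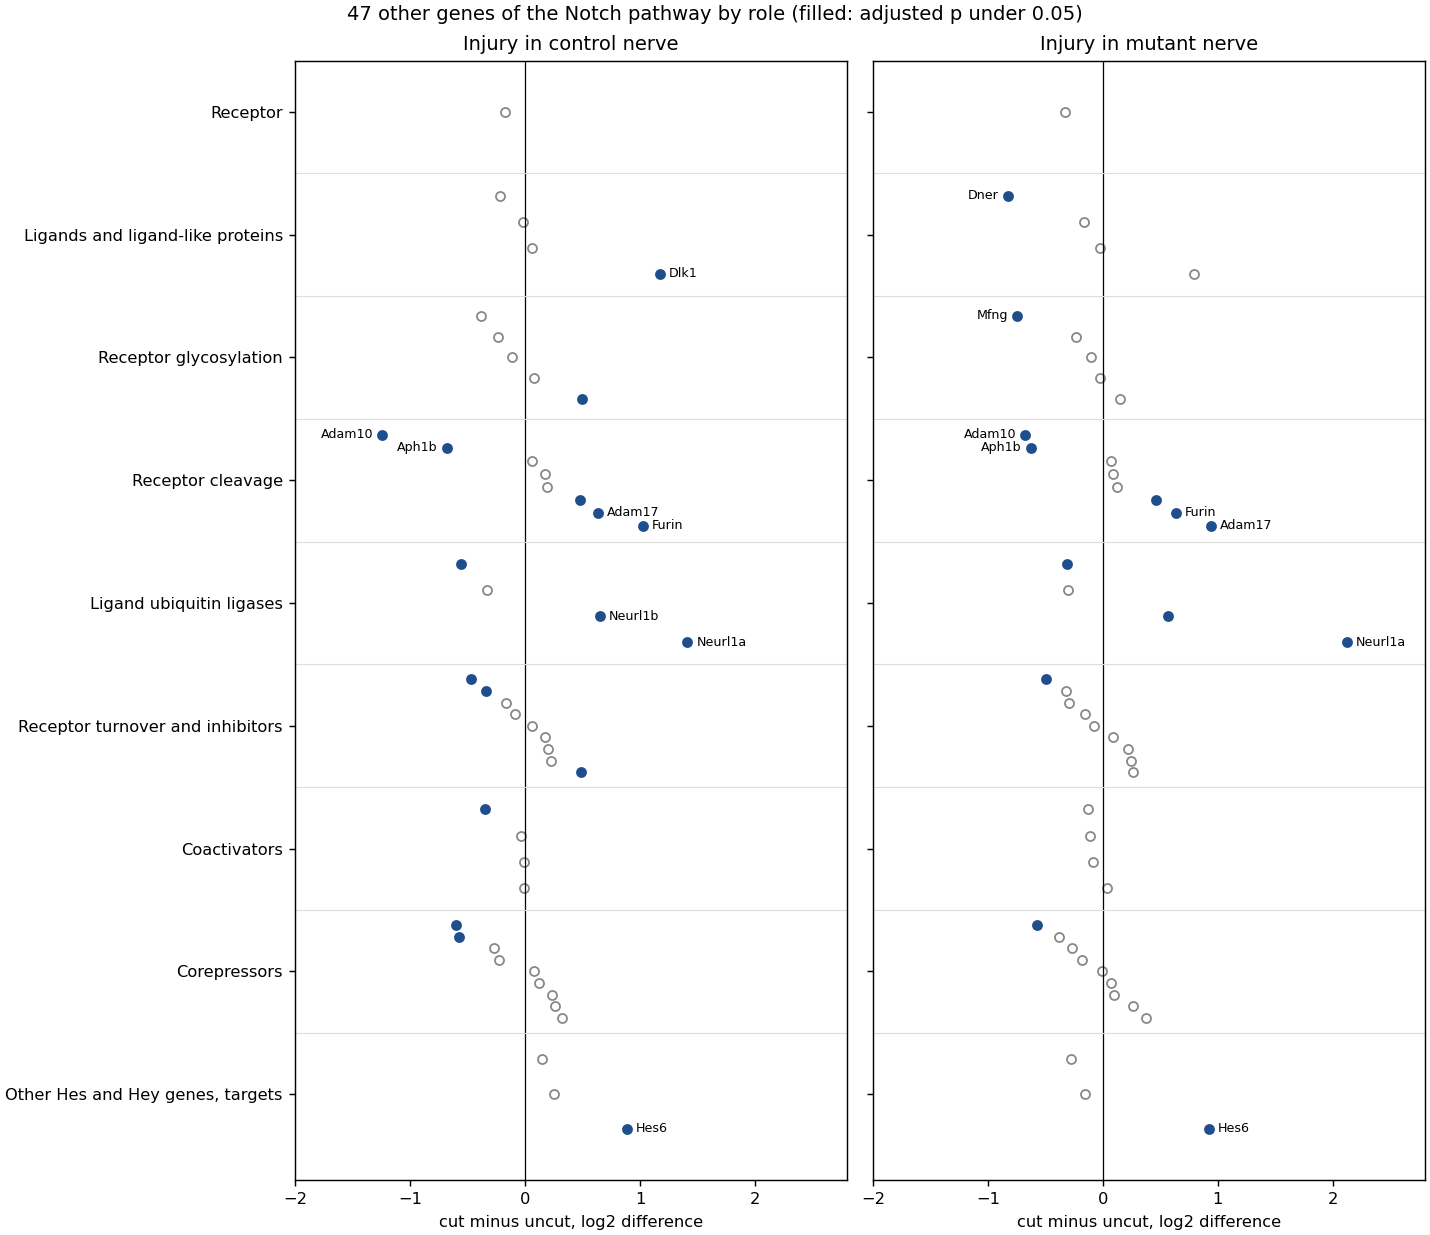
Log2 difference after injury of the 47 other pathway genes that passed the filter, by role, in control (left) and mutant (right) nerve; filled points passed an adjusted p under 0.05, and genes with large called differences are named. Genes for receptor cleavage lie on both sides of 0 in both genotypes, from Adam10 below to Adam17 and Furin above.

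Cell type markers moved with injury as well, and their levels stand beside all the injury values above. The mean log2 level of 10 macrophage markers was 8.834 to 8.998 in control uncut and 10.73 to 10.84 in control cut nerve, with 10 of 10 called higher in control and 9 of 10 in mutant nerve. Of 13 endothelial markers 2 were called lower in control and 6 in mutant nerve, with mean levels of 8.88 to 8.94 and 8.66 to 8.82 in control uncut and cut nerve and of 9.13 to 9.18 and 8.79 in the mutant. Arterial markers, of which Gja5 did not pass the filter, had mean levels of 8.90 to 9.04 in control uncut and 8.55 to 8.60 in control cut nerve. In mutant nerve the means were 8.96 to 9.01 uncut and 8.55 to 8.60 cut. Of the 5 measured, 1 was called higher and 3 lower in control nerve and 0 higher and 2 lower in the mutant. Efnb2, a defining marker of that list, rose in control nerve by 0.79 (limma adjusted p = 0.0335), while Gja4 was level (-0.01). Of 11 mural markers 2 rose and 4 fell in control nerve and 2 rose and 5 fell in mutant nerve. Their differences ran from -0.97 to 2.71 in control and from -0.91 to 2.77 in mutant nerve. All 3 perineurial markers fell in both genotypes, with median differences of -1.04 and -1.06, and of 7 fibroblast markers 3 rose and 1 fell in each. All 7 measured markers of myelinating Schwann cells fell in both genotypes, their mean level in control nerve going from 12.57 to 12.58 down to 8.87 to 8.89. The mean of 5 Schwann lineage markers lay between 10.69 and 11.23 on all arrays, but its members moved apart, with 2 called higher and 1 lower in control nerve and 3 higher and 1 lower in mutant nerve; S100b, a calcium-binding protein of Schwann cells, fell by 0.92 and 1.04. Those of denervated Schwann cells were at 6.49 to 6.53 in control uncut, 10.76 to 11.08 in control cut and 9.25 to 9.55 in mutant cut nerve. The 4 measured proliferation genes rose from 5.90 to 6.17 up to 9.71 to 9.97 in control nerve, and the mean of 8 skeletal muscle genes was 11.64 to 12.49 in control uncut and 13.35 to 13.55 in control cut nerve. The part of these shifts in the Notch values was not tested.

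**Figure D5:**
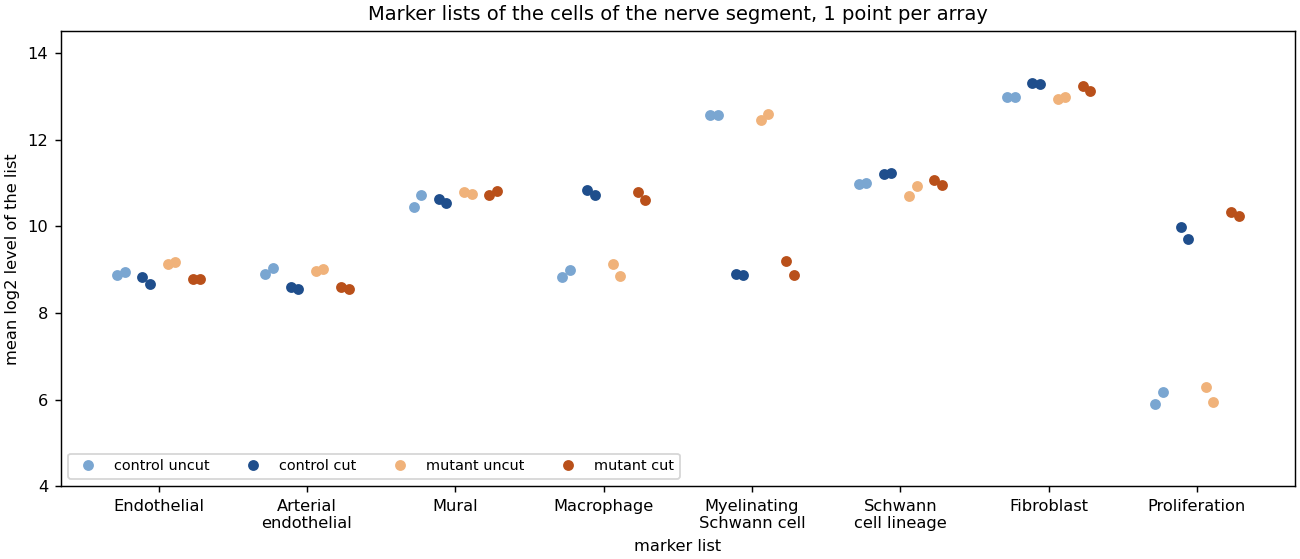
Mean log2 level of 8 cell type marker lists on every array, 2 points per group. Macrophage and proliferation lists are higher and the myelinating list lower on all cut arrays. The means of the endothelial and mural lists stay within 1 log2 unit, though single mural markers moved far in both directions.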

How the data were processed

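Pooled nerve RNA was hybridised to 8 Affymetrix arrays with 1 colour. The authors deposited log2 values per probe set made with RMA and the package affy, per the submitters' processing notes, which state no versions. RMA subtracts background, gives arrays a common distribution and combines the probes of a set, so a shift common to all genes is removed and differences of dim probe sets are compressed. The number of arrays limits the precision. Scan dates and detection calls were not used here.

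Symbols came from the platform annotation: 34958 probe sets have 1 symbol, 932 several and 9211 none, and those with several or none named no gene. Gene numbers tied 34754 of the first to a current table, with 0 symbols changed. Probe sets above the median (50th percentile) of their array on at least 2 arrays were kept (24162), and the 1 with the highest mean stood for each gene (12093 genes).

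With R 4.3.3 and limma 3.58.1 group means were fitted over 8 arrays (4 residual degrees of freedom). The contrasts were injury in each genotype, genotype in cut and in uncut nerve, and their interaction. Genes were called at a two-sided Benjamini-Hochberg adjusted p under 0.05 over all genes. The model was run on simulated arrays with known changes as a check of the code, which does not test the calls reported here. Contrasts share arrays, so their results are not independent.

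The members and lists were chosen with earlier results of these data known. Genes named are all members, Jun, and in each contrast up to 4 other called pathway genes per direction with the highest absolute difference. Genes of like pattern were to be named for members whose group means span at least 1 on the log2 scale; no tested member did. Promoter windows came from RefSeq. Alternatives were other filters, probe set summaries, normalisations, variance models and thresholds, a block for the replicate number, a fit to the 4 arrays of a contrast alone, and the omission of single arrays.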

Additional observations from a re-analysis of the deposited data

How the results depend on the processing

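In the genotype contrasts and the interaction 0 members were called under every alternative run. Of 984 values of single members under alternatives, 901 kept their direction and their side of the threshold. Another 31 uncalled values changed sign without being called, 42 lost a call and 10 gained one, and 0 called values reversed. Many of these values could not change direction, so the tally is no measure of robustness. Array weights were equal within each group and left the log2 differences as they were. So did the variance models, the replicate block and the omission of an array outside a contrast. Values that stayed uncalled are counted as kept too. At an adjusted p under 0.01 the counts were 1 member in control nerve, 1 in mutant nerve and 3 averaged over genotypes (3, 3 and 6 at 0.05). Of other pathway genes 6, 7 and 15 were called (17, 13 and 27 at 0.05). Counts over all genes are not given at 0.01, nor for the fits without single arrays that follow. These changes in count therefore cannot be read as particular to the members or the pathway. Leaving out each array in turn gave 1 to 3 members in control nerve, 0 to 4 in mutant nerve and 4 to 6 averaged, and 7 to 16, 8 to 13 and 19 to 23 other pathway genes. With the replicate number as a block, 3 members were called in control nerve, 4 in mutant nerve and 6 averaged. The other pathway genes called numbered 20, 14 and 27. Over all genes it was 5543 in control nerve, 4979 in mutant nerve and 6971 averaged, against 4877, 4348 and 6477 without the block. The block added Rbpj in mutant nerve (limma adjusted p = 0.0493). The labels tie the numbers to no shared animals or day, so the numbers were not taken as pairs. Deviations of same-numbered arrays correlated with r = 0.0226 to 0.340 between groups. That correlation cannot decide whether cut and uncut pools came from the same mice. The block is 1 replicate effect shared by both genotypes, so it does not model such a pairing. The causes of the shifts between alternatives were not tested. With 2 arrays per group, injury differences near 0.5 lie at the edge of what could be called. In the genotype contrasts and the interaction such differences, and larger ones, went uncalled. Dll1 at 0.50 in uncut nerve was not called (limma adjusted p = 0.9997), and neither was the Jun interaction of -1.29 (adjusted p = 0.0726). Hey2 is limited by its low signal over background.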
